A study of Arabidopsis halleri with 24 samples.

Results

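The genes described here belong to named families of plant membrane transporters and channels. They were chosen by symbol alone, as the probe sets with 1 symbol in the platform's probe table whose symbol begins with 1 of 34 family names and a number, with or without the prefix AT. Of 22746 probe sets on the array other than controls, 13513 carried 1 symbol and 17 of these matched. They fell into 4 of the 34 families. The glutamate receptor-like channels (GLR) gave 8 members, the cation/H+ exchangers (CHX) gave 7, and the nitrate transporters (NRT) and the purine permeases (PUP) gave 1 each. Probe sets for aquaporins, potassium, phosphate, sulphate and ammonium transporters, ABC transporters and the other 30 families had no matching single symbol in that table and were not analysed here. A further 2 probe sets had a matching symbol beside a second gene and were left out.

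The arrays measured transcripts in plants recorded as Arabidopsis halleri, a species known for taking up very large amounts of zinc into its shoots. There were 8 groups of 3 arrays: accumulating bulk on high zinc, accumulating bulk on control medium, non-accumulating bulk on high zinc and non-accumulating bulk on control medium, each as whole root system and as rosette leaves. All groups were grown in a growth room with 10 h of light on full mineral medium, and zinc in the high-zinc medium was 25 µM by the treatment labels. A bulk is a pool of plants; these are known to be pools of progeny from a cross of A. halleri with the non-accumulating A. petraea, although the array titles do not say so. No label names a second pool of either kind. For the control roots of the non-accumulating bulk, replicate 1 has halleri as its source name in place of a bulk, and was kept in the group its title gives. Nothing in the labels ties the replicates to separate plants or cultures, so the p-values reflect only how arrays of a group vary, which may be technical.

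The ATH1 array carries probes designed on Arabidopsis thaliana, and the deposited values were MAS5 signals, a linear brightness in intensity units. Differences between groups are taken within a probe set. Where a signal is set against the array median or another probe set, it also depends on how well the probes match, which was not tested. Whether the bulks differ in sequence at the probes was not tested either. Array medians lay between 48.5 and 61.4. The organ labels matched their markers. The root genes EXPA7, EXPA18 and PYK10 were higher in roots by log2 differences of 0.80 to 4.74. EXPA7 overlapped between the organs, at 40.8 to 179 in roots and 18.5 to 73.8 in leaves, while EXPA18 and PYK10 did not. Other root genes planned as markers had no matching symbol. The 6 photosynthesis genes were lower in roots by log2 differences of -6.76 to -4.16, with no leaf array of any of these 6 below any root array. The leaf arrays of replicate number 3 stood apart from the other leaf arrays, with 2889 of 12688 probe sets past the threshold between them (22.8%, limma, adjusted p under 0.05), so leaf values were also fitted without them. In whole organs, fewer cells of a type and less RNA per cell cannot be told apart.

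GLR proteins are the plant relatives of the ionotropic glutamate receptors of animal nerve cells. In A. thaliana they form cation channels that let calcium pass and that can be gated by amino acids, and some of them carry the electrical and calcium signals that travel from a wounded leaf. CHX proteins exchange potassium or other monovalent cations for protons across membranes, and many CHX genes of A. thaliana are transcribed mainly in pollen. NRT2 proteins take up nitrate at low supply, and PUP proteins move purines and related compounds such as cytokinins. None of these 4 families is known mainly for zinc transport.

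Signals of the 17 members were mostly low. Of the 7 CHX members, 5 stayed below the median signal of the array on every array, and only 2 of the family's 168 values lay above it. The GLR family had 75 of 192 values above the array median, most of them from GLR1.4, GLR3.6, GLR2.8 and GLR3.5. GLR3.6 was above the median on all 24 arrays, PUP15 on 23, GLR1.4 on 22, GLR2.8 on 12, NRT2.5 on 11 and GLR3.5 on 9. All 9 of the GLR3.5 arrays and 11 of the 12 GLR2.8 arrays were leaf arrays. A probe set was tested if at least 1 group mean, on the log2 scale, exceeded the median of the values fitted, which is a signal of 54.8 over all arrays. This kept 6 members over all arrays and in leaves (GLR1.4, GLR2.8, GLR3.5, GLR3.6, NRT2.5 and PUP15) and 4 in roots, where GLR2.8 and GLR3.5 fell below it. The other 11 members are described by their signals.

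**Figure D1:**
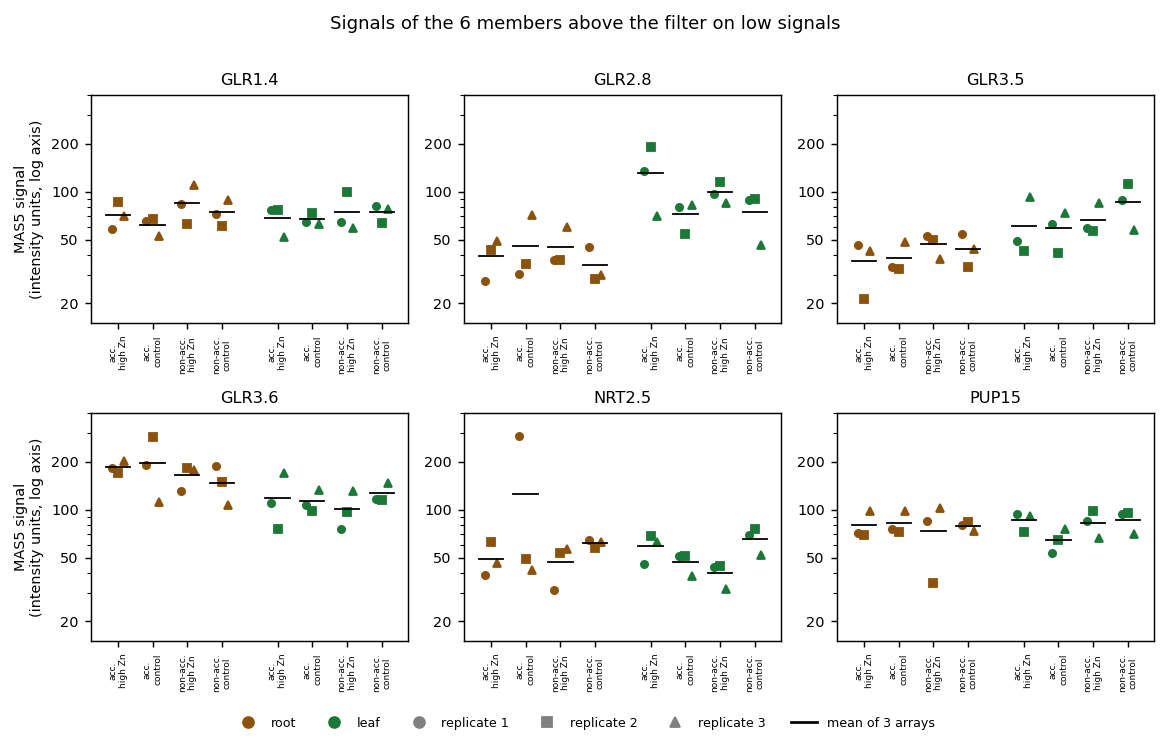
MAS5 signal on each of the 24 arrays (log axis, intensity units) of the 6 members that passed the filter, with 1 panel per gene, the 8 groups along the horizontal axis and a bar at each group mean. GLR2.8 and GLR3.5 sit higher in leaves, GLR3.6 sits higher in roots, and 1 accumulating control root array of NRT2.5 stands at 287.

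Among the comparisons of organ, zinc and bulk, members were called in root against leaf, and the 3 called were GLR genes. No CHX member was tested in that fit. GLR2.8 and GLR3.5 were lower in roots than in leaves, and GLR3.6 was higher in roots. The fit, made with limma on log2(signal + 16) over all 24 arrays, called 3 of the 6 members tested, 1 higher and 2 lower in roots, where 9777 of all 14403 probe sets tested were called (67.9%), 40.4% higher and 27.4% lower. The median log2 difference was -0.00 over the 6 members and 0.13 over all probe sets tested. The share of members called was thus below that of all probe sets, and the organ difference is described here gene by gene. GLR2.8 and GLR3.5 passed the filter only through their leaf groups, so a high leaf signal was a condition of their being tested.

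Clade 2 of the family holds GLR2.7, GLR2.8 and GLR2.9, neighbouring genes in A. thaliana that have been linked there to calcium signals in immunity. GLR2.8 (probe set 266780_at) had signals of 27.5 to 71.2 in the 12 root arrays with a median of 37.2, against 46.1 to 189 in the 12 leaf arrays with a median of 86.6. Only 3 root arrays lay above the lowest leaf array. The mean was 41.2 ± 13.5 in roots and 94.2 ± 38.2 in leaves (SD, n = 12 each), and the log2 difference was -0.91 (SE 0.15, 95% confidence interval -1.22 to -0.60, limma adjusted p = 1.78e-05). Without the leaf arrays of replicate number 3 it was -1.06, and without the root array with the source name halleri -0.95. Taken apart, the log2 difference for GLR2.8 was -1.33 in accumulating high-zinc plants, -0.56 in accumulating control plants, -0.93 in non-accumulating high-zinc plants and -0.82 in non-accumulating control plants. Root and leaf arrays overlapped in the accumulating control plants and in none of the other 3, where 48.2%, 48.1% and 49% of all probe sets had no overlap.

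GLR2.7 and GLR2.9 remained under the filter. GLR2.7 (266782_at) ran from 1.47 to 6.25 in roots, with a median of 4.70, against 4.47 to 11.5 in leaves, with a median of 7.25. GLR2.9 (266779_at) ran from 2.26 to 26.2 in roots, with a median of 3.44, against 4.01 to 72.5 in leaves, with a median of 10.0. All 3 clade 2 genes therefore had a lower median in roots than in leaves, with overlap in each case. With no filter, where 51.8% of 22746 probe sets were called, the GLR2.7 difference was -0.18 on the log2 scale (SE 0.05, limma adjusted p = 0.00947) and that of GLR2.9 was -0.42 (adjusted p = 0.0559). At signals this low the pseudocount of 16 shrinks the difference of both genes.

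Clade 3 holds GLR3.3, GLR3.5 and GLR3.6. In A. thaliana GLR3.3 and GLR3.6 are needed for wound signals to pass from leaf to leaf, with GLR3.3 in the phloem and GLR3.6 in cells at the xylem. GLR3.6 (252106_at) gave 183, 170.3 and 203 in roots of the accumulating bulk on high zinc and 191, 284 and 112 in its control roots. In roots of the non-accumulating bulk it gave 131, 183 and 178 on high zinc and 187, 149 and 106 in controls. The leaves gave 110.1, 75.5 and 169 in the accumulating bulk on high zinc and 106, 98.0 and 133 in its controls, and 75.03, 96.2 and 131 in the non-accumulating bulk on high zinc and 117, 115 and 147 in its controls. Of the 12 root arrays, 8 lay above every leaf array, and 10 lay above the leaf median of 113. The mean was 173 ± 47.2 in roots and 114 ± 27.7 in leaves (SD, n = 12 each), and the log2 difference was 0.53 (SE 0.14, limma adjusted p = 0.00253). It was 0.18 in non-accumulating control plants and 0.64 to 0.65 in the other 3 combinations of bulk and medium. Without the leaf arrays of replicate number 3 the GLR3.6 difference was 0.69, and without the root array with the source name halleri 0.48.

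GLR3.5 (266337_at) ran the other way. Its root arrays lay between 21.2 and 54.5, with a median of 43.1, against 41.1 to 111 in leaves, with a median of 60.7. No root array lay above the leaf median, although the ranges overlapped. The mean was 41.5 ± 9.90 in roots and 68.1 ± 21.8 in leaves (SD, n = 12 each), a log2 difference of -0.53 (SE 0.13, limma adjusted p = 0.00160). The GLR3.5 difference was -0.44 without the leaf arrays of replicate number 3 and -0.56 without the root array with the source name halleri. It ran from -0.74 in non-accumulating control plants to -0.38 in non-accumulating high-zinc plants. GLR3.3 (256541_at), below the filter, ran from 10.6 to 53.3 in roots and 11.8 to 54.3 in leaves, with a median of 29.7 in roots and 27.3 in leaves. The clade thus held 1 gene higher in roots, 1 lower in roots and 1 whose ranges in the organs were nearly the same.

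Clade 1 was represented by GLR1.4, which forms a methionine-gated cation channel when expressed in frog oocytes, and by ATGLR1.2, known from calcium signals in growing pollen tubes. GLR1.4 (259065_at) ran from 53.0 to 109 in roots and 51.9 to 99.3 in leaves, with a log2 difference of 0.03 (95% confidence interval -0.18 to 0.24). ATGLR1.2 (248700_at) ran from 36.1 to 65.0 in roots and 30.1 to 65.8 in leaves, below the filter. Neither separated the organs.

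**Figure D2:**
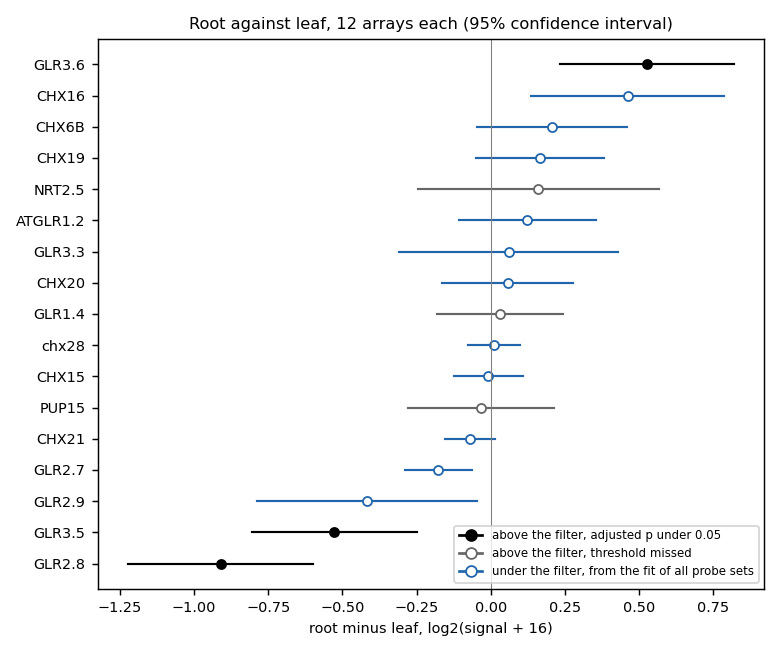
Log2 difference of root minus leaf for the 17 members, fitted with limma over 24 arrays, with bars for the 95% confidence interval. The 6 members tested are in black or grey. The 11 members under the filter are in blue and come from a separate fit with no filter. Among the 6 tested, GLR3.6 lies above 0, GLR2.8 and GLR3.5 lie below 0, and the intervals of GLR1.4, NRT2.5 and PUP15 include 0.

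The remaining tested members, NRT2.5 and PUP15, did not differ between organs past the threshold. NRT2.5 (261198_at), which in A. thaliana is a high-affinity nitrate transporter induced by nitrogen starvation, had a log2 difference of 0.16 (SE 0.20, 95% confidence interval -0.25 to 0.57, limma adjusted p = 0.476). PUP15 (257461_at), a member of the purine permease family, had a log2 difference of -0.03 (SE 0.12, limma adjusted p = 0.818). The root and leaf arrays of all 17 members overlapped, both those of the 6 tested and those of the 11 under the filter. Among all probe sets tested, 20.2% had no overlap between organs. That share does not cover probe sets under the filter.

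The 7 CHX members gave little signal in either organ. CHX21 (263469_at), found in the root endodermis of A. thaliana, ran from 1.27 to 3.24 in roots and 1.76 to 8.41 in leaves. CHX20 (251906_at), which acts in guard cells of A. thaliana, ran from 3.35 to 22.4 in roots and 4.26 to 17.9 in leaves. CHX15 (263720_at) reached at most 7.12 in roots and 9.64 in leaves, and chx28 (252087_at) at most 5.60 in roots and 4.08 in leaves. CHX6B (261816_at) reached 56.4 in roots and 51.1 in leaves. CHX19 (258408_at), an exchanger of inner membranes, ran from 28.4 to 49.1 in roots and 21.7 to 55.6 in leaves. Detection calls were not used here, and the match of the probes to A. halleri was not tested. Signals at this level therefore do not show whether these genes were transcribed.

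CHX16 (262324_at) was the CHX member whose organs differed most. Its root arrays gave 16.9, 14.1 and 13.7 in the accumulating bulk on high zinc and 12.9, 48.5 and 12.0 in its controls, and 15.4, 64.8 and 9.76 in the non-accumulating bulk on high zinc and 17.2, 16.2 and 12.9 in its controls. Its leaf arrays lay between 4.95 and 12.8. The high values of 48.5 and 64.8 were 1 array each, both of replicate number 2, and the other 10 root arrays ended at 17.2. With no filter the CHX16 difference was 0.46 on the log2 scale (SE 0.16, limma adjusted p = 0.0175), and CHX16 was 1 of 5 members called without a filter, beside GLR2.7, GLR2.8, GLR3.5 and GLR3.6. The other 6 CHX members did not pass. The array with CHX16 at 48.5 also held the highest root signal of GLR2.9, 26.2, and the array with CHX16 at 64.8 held the lowest signal of PUP15, 34.9.

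**Figure D3:**
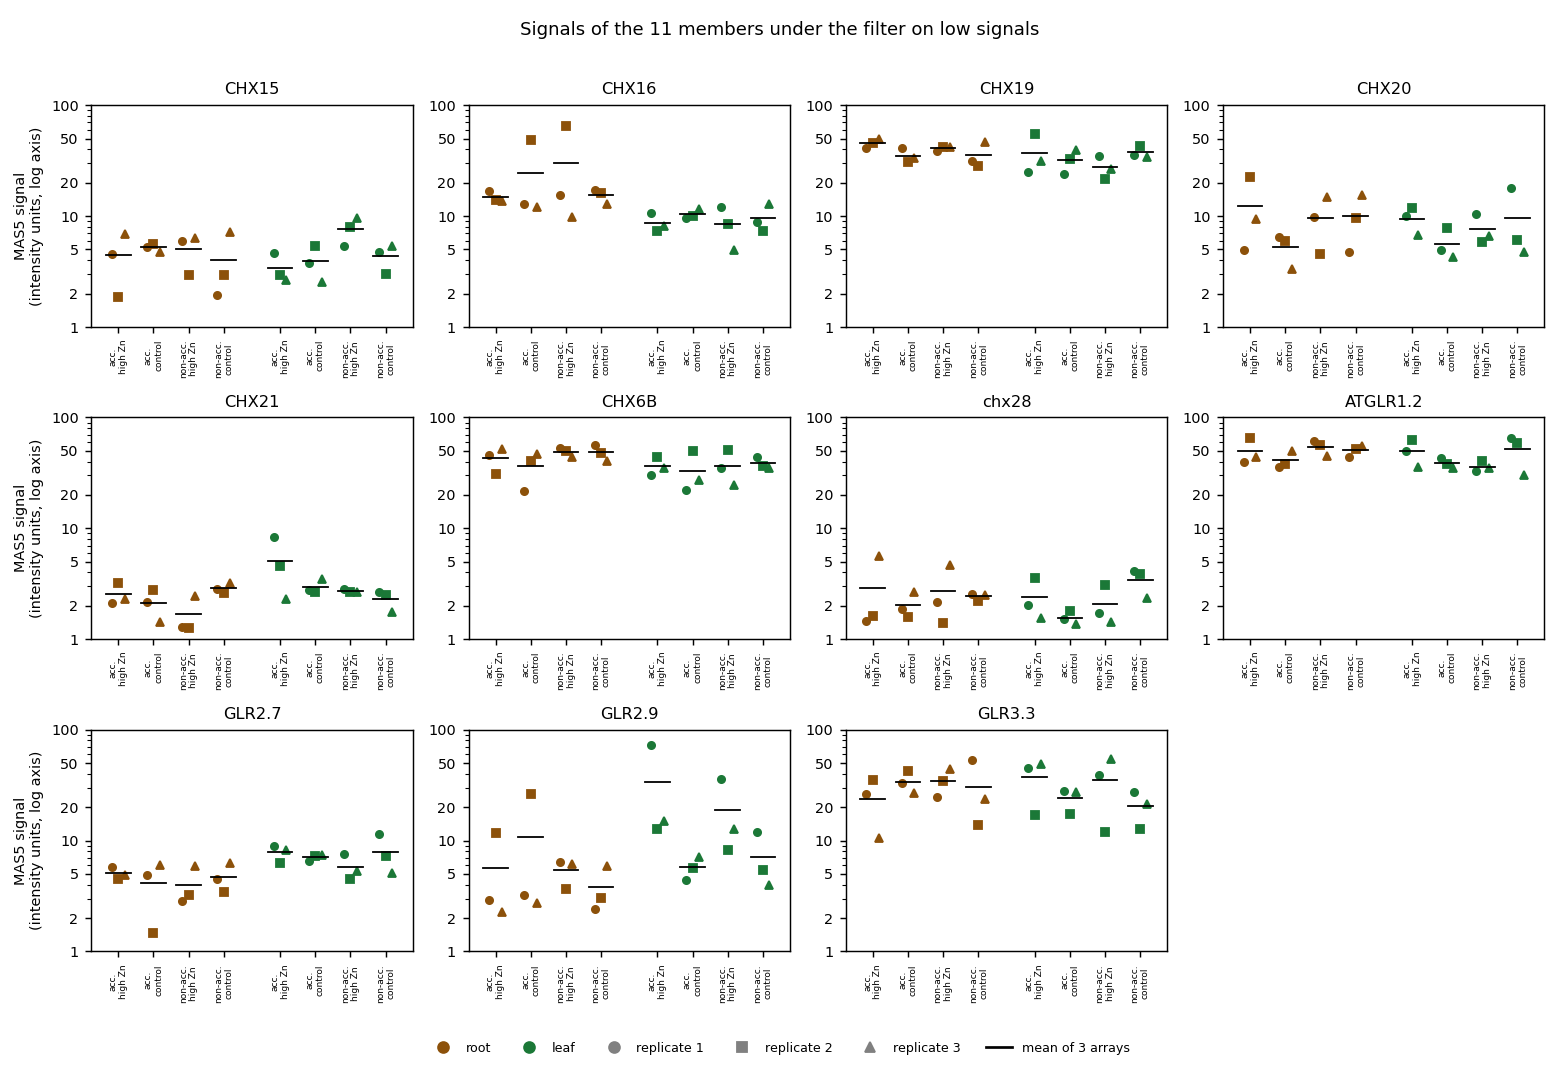
MAS5 signal on each of the 24 arrays (log axis from 1 to 100, intensity units) of the 11 members under the filter, with the 8 groups along the horizontal axis, a marker for each replicate number and a bar at each group mean. CHX15, CHX21, chx28 and GLR2.7 lie near the bottom of the axis, CHX16 has its high values on 2 root arrays, and GLR2.9 has its highest values in high-zinc leaves.

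The zinc treatment asked which transcripts go with zinc supply. In leaves, GLR2.8 was the tested member with the largest difference, with higher signals on high zinc, and among the alternatives run it passed the threshold only when the leaf arrays of replicate number 3 were left out. In the fit of all 12 leaf arrays none of the 6 members tested was called, and 4 of 12688 probe sets were (0.0315%), with 1190 at an unadjusted p under 0.05. The median log2 difference over the 6 members was -0.07, against 0.00 over all probe sets tested.

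GLR2.8 gave 135, 189 and 70.0 in leaves of the accumulating bulk on high zinc, against 80.5, 54.6 and 81.9 in its control leaves. In the non-accumulating bulk it gave 96.0, 115 and 85.1 on high zinc, against 88.2, 89.2 and 46.1 in controls. In each bulk 2 of the 3 high-zinc arrays lay above all control arrays and the third among them, so the groups overlapped. The mean was 115 ± 42.8 in high-zinc leaves and 73.4 ± 18.4 in control leaves (SD, n = 6 each). The log2 difference was 0.52 (SE 0.22, 95% confidence interval 0.04 to 1.00, limma adjusted p = 0.485). It was 0.67 (SE 0.31) in the accumulating and 0.38 (SE 0.31) in the non-accumulating bulk, and leaving out 1 array moved these values to between 0.38 and 1.01 and between 0.13 and 0.50. The difference between the bulks in this response was 0.29 (SE 0.44, limma adjusted p = 1.00), and between 0.0063 and 0.63 with 1 array left out.

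Without the leaf arrays of replicate number 3, the GLR2.8 difference was 0.65 (SE 0.17, limma adjusted p = 0.0373). It was then the 1 member called of 7 tested, with 9.24% of 13193 probe sets called and 4.35% called higher. ATGLR1.2, under the filter with all leaf arrays, was the member added in this fit, with a zinc difference of -0.12 (SE 0.18). With all leaf arrays GLR2.8 was not called (limma adjusted p = 0.485) and 0.0315% of probe sets were. Leaving these arrays out thus changed both the GLR2.8 call and the share of probe sets called. The fit without them gave 1.09 for GLR2.8 in accumulating leaves (limma adjusted p = 0.0527). In non-accumulating leaves it gave 0.21 (limma adjusted p = 0.664), with an interaction of 0.88 (limma adjusted p = 0.699). In roots GLR2.8 was under the filter, with 27.5, 42.8 and 48.7 in the accumulating bulk on high zinc, against 30.6, 35.3 and 71.2 in its controls, and with 37.4, 37.0 and 60.1 in the non-accumulating bulk on high zinc, against 45.3, 28.3 and 29.9 in its controls. The root arrays of both media overlapped in each bulk. The organ by zinc interaction of GLR2.8 was -0.44 (SE 0.30, limma adjusted p = 0.861), which is not past the threshold.

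GLR2.9, the neighbour of GLR2.8, also had its highest leaf signals on high zinc, at levels under the filter. It gave 72.5, 12.7 and 15.0 in leaves of the accumulating bulk on high zinc, against 4.42, 5.66 and 7.11 in its controls, and 35.9, 8.16 and 12.7 in the non-accumulating bulk on high zinc, against 11.9, 5.38 and 4.01 in its controls. The groups did not overlap in the accumulating bulk, as for 10.3% of the probe sets tested there, and overlapped in the other. All 6 high-zinc arrays lay above 5 of the 6 control arrays, the second highest control array being at 7.11. With no filter the log2 difference was 0.76 (SE 0.28, 95% confidence interval 0.15 to 1.37, limma adjusted p = 0.568), on means of 26.2 ± 24.7 on high zinc and 6.41 ± 2.897 in control leaves (SD, n = 6 each). GLR2.7, the third gene of the clade, averaged 6.81 ± 1.75 in high-zinc leaves and 7.51 ± 2.13 in control leaves (SD, n = 6 each), with overlap.

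The other members tested in leaves did not separate the media. GLR3.5 differed by -0.14 (SE 0.20), GLR3.6 by -0.15 (SE 0.19), PUP15 by 0.14 (SE 0.14) and GLR1.4 by -0.00 (SE 0.15). GLR3.5 gave 49.1, 42.2 and 92.4 in leaves of the accumulating bulk on high zinc, against 62.6, 41.1 and 73.5 in its controls. In the non-accumulating bulk it gave 58.8, 56.4 and 84.5 on high zinc, against 88.4, 111 and 57.8 in controls. In this bulk the first and second high-zinc arrays lay below the first and second control arrays, and the third lay above the third. Without the leaf arrays of replicate number 3 the GLR3.5 difference was -0.38 (SE 0.17, limma adjusted p = 0.200). The same fit gave -0.26 (SE 0.16) for GLR3.6, 0.13 (SE 0.16) for GLR1.4, 0.18 (SE 0.15) for PUP15 and -0.23 (SE 0.17) for NRT2.5, against -0.15 (SE 0.15) for NRT2.5 with all 12 arrays, and none of these was called.

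**Figure D4:**
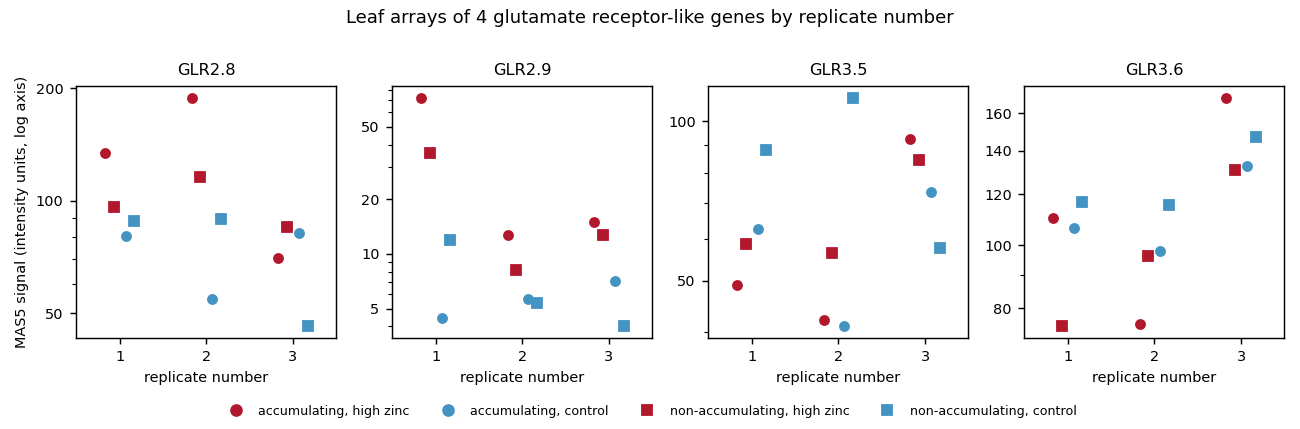
MAS5 signal (log axis, intensity units) of GLR2.8, GLR2.9, GLR3.5 and GLR3.6 on the 12 leaf arrays, by replicate number along the horizontal axis, with circles for the accumulating and squares for the non-accumulating bulk, red for high zinc and blue for control. The 4 arrays of replicate number 3 lie above the other 8 for GLR3.6, and the highest GLR2.8 and GLR2.9 values are high-zinc arrays of replicate numbers 2 and 1.

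Replicate number itself separated some members in leaves. The labels give the number and no date or run, so what the arrays of number 3 share is not known. GLR3.6 was the 1 member of 6 called between replicate number 3 and the other leaf arrays, where 22.8% of probe sets were called, 11.8% higher. Its mean was 145 ± 17.8 (SD, n = 4) on arrays of number 3 and 99.2 ± 16.5 (SD, n = 8) on the others, with no overlap, a log2 difference of 0.49 (SE 0.13, limma adjusted p = 0.0224). Groups without overlap were found for 12.2% of all probe sets in this comparison. The GLR3.6 call was lost without the number 3 array of the high-zinc leaves of either bulk, with log2 differences of 0.39 (adjusted p = 0.105) for the accumulating and 0.47 (adjusted p = 0.0609) for the non-accumulating bulk. GLR2.8 averaged 70.8 ± 17.7 (SD, n = 4) on arrays of number 3 and 106 ± 41.1 (SD, n = 8) on the others, a log2 difference of -0.45 (SE 0.19, adjusted p = 0.107), which passed without the number 3 array of accumulating control leaves (-0.68, adjusted p = 0.0345). GLR3.5 differed by 0.26 (limma adjusted p = 0.369), and by 0.56 without the number 3 array of non-accumulating control leaves (limma adjusted p = 0.0370). For GLR2.8 and GLR3.5 alike, this was the 1 fit that called the gene among 12 fits that each left out 1 array. Across the 12 leaf arrays GLR2.8 and GLR3.6 had a correlation of -0.60 and GLR3.5 and GLR3.6 of 0.58 on the log2 scale, given as descriptions of arrays that share replicate numbers and bulks.

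In roots no member responded to zinc past the threshold. None of the 4 members tested was called, nor was any of the 12489 probe sets (0%), with 854 at an unadjusted p under 0.05. GLR1.4 differed by 0.16 (SE 0.14), GLR3.6 by 0.08 (SE 0.19), PUP15 by -0.10 (SE 0.18) and NRT2.5 by -0.51 (SE 0.33, limma adjusted p = 0.784). Without the root array with the source name halleri, these were 0.16, 0.17, -0.10 and -0.49 in the same order. In non-accumulating roots alone the GLR3.6 difference was 0.33 (SE 0.30) without that array and 0.16 with it. None of these values was called.

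The NRT2.5 value in roots rested on 1 array. NRT2.5 gave 38.8, 62.6 and 46.4 in roots of the accumulating bulk on high zinc, against 287, 48.9 and 41.5 in its controls. In the non-accumulating bulk it gave 31.3, 53.5 and 56.6 on high zinc, against 64.7, 57.7 and 62.7 in controls. The array at 287, replicate 1 of the accumulating control roots, was the highest of all 24 and the next highest stood at 75.4. Without it, the zinc difference in accumulating roots was 0.08 in place of -0.69, and the bulk difference in control roots was -0.35 in place of 0.42, so both signs turned. The bulk difference over both media turned likewise, to -0.14 without that array and 0.24 with it, and the bulk by zinc interaction to 0.40 without it and -0.37 with it. None of these values was past the threshold with or without the array.

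In leaves the zinc differences of NRT2.5 had opposite signs in the bulks, again short of the threshold. It gave 45.5, 68.4 and 62.4 in leaves of the accumulating bulk on high zinc, against 51.5, 51.0 and 38.1 in its controls. In the non-accumulating bulk it gave 43.8, 44.0 and 31.9 on high zinc, against 68.8, 75.4 and 51.7 in controls. High-zinc leaves of the non-accumulating bulk thus lay below all of its control leaves, and those of the accumulating bulk overlapped theirs. The zinc difference was 0.24 (SE 0.21) in the accumulating and -0.54 (SE 0.21, limma adjusted p = 0.948) in the non-accumulating bulk, and the interaction was 0.78 (SE 0.30, 95% confidence interval 0.12 to 1.44, unadjusted p = 0.0235, limma adjusted p = 1.00). Without the leaf arrays of replicate number 3 the NRT2.5 zinc difference was 0.10 (SE 0.24) in the accumulating and -0.56 (SE 0.24) in the non-accumulating bulk, with an interaction of 0.66 (SE 0.34, limma adjusted p = 0.739). ATGLR1.2, tested in leaves in that fit, also had opposite signs, 0.34 (SE 0.25) in the accumulating and -0.58 (SE 0.25) in the non-accumulating bulk. Its interaction was 0.92 (SE 0.36, limma adjusted p = 0.699), and none of these values was called. With all 12 leaf arrays, no probe set was called for the bulk by zinc interaction (0% of 12688), with 197 at an unadjusted p under 0.05. Over the 8 comparisons of 3 arrays against 3 within an organ, 4 of 40 tested member values had no overlap, all of them of NRT2.5. Over all probe sets tested that share was 9.21% for zinc in non-accumulating leaves, 12.2% for zinc in non-accumulating roots, 7.8% for the bulks in high-zinc leaves and 8.19% for the bulks in control leaves, the comparisons in which NRT2.5 had none.

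The bulk comparison asked which transcripts go with zinc accumulation, and none of the members did so past the threshold in either organ. In roots 0 of 4 members and 0 of 12489 probe sets were called (0%), with 862 at an unadjusted p under 0.05. GLR3.6 differed by 0.24 (SE 0.19), GLR1.4 by -0.20 (SE 0.14) and PUP15 by 0.10 (SE 0.18) between accumulating and non-accumulating roots. Without the root array with the source name halleri, these were 0.33 (SE 0.20), -0.20 (SE 0.16) and 0.11 (SE 0.20) in the same order. In control roots alone the GLR3.6 difference was 0.49 (SE 0.30) without that array and 0.32 with it. None of these values was called. In leaves 0 of 6 members and 0 of 12688 probe sets were called (0%), with 546 at an unadjusted p under 0.05. GLR3.5 had the largest difference, -0.28 (SE 0.20, 95% confidence interval -0.73 to 0.16), followed by PUP15 at -0.15 (SE 0.14), GLR2.8 at 0.13 (SE 0.22), GLR1.4 at -0.10 (SE 0.15), NRT2.5 at 0.02 (SE 0.15) and GLR3.6 at 0.01 (SE 0.19). Without the leaf arrays of replicate number 3 the GLR3.5 difference was -0.52 (SE 0.17, limma adjusted p = 0.315), with 1 of 13193 probe sets called (0.00758%). Taken by medium, this GLR3.5 difference was -0.78 (SE 0.24, limma adjusted p = 0.444) in control leaves and -0.26 (SE 0.24) in high-zinc leaves. The bulk by zinc interaction of GLR3.5 was 0.52 (SE 0.34, limma adjusted p = 0.790), also not called. The same fit gave -0.34 for PUP15 (SE 0.15, 95% confidence interval -0.67 to -0.02, unadjusted p = 0.0420, limma adjusted p = 0.427). It gave 0.10 (SE 0.17) for GLR2.8, -0.05 (SE 0.16) for GLR1.4, -0.06 (SE 0.17) for NRT2.5 and -0.04 (SE 0.16) for GLR3.6, so the last 2 changed sign within 1 SE of 0. The intervals of GLR3.5 in leaves and of GLR3.6 in roots (-0.17 to 0.66) include differences as large as those between the organs.

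PUP15 showed no group that stood apart. It gave 71.5, 69.2 and 97.8 in roots of the accumulating bulk on high zinc, against 75.2, 72.6 and 97.8 in its controls, and 84.2, 34.9 and 102 in roots of the non-accumulating bulk on high zinc, against 80.0, 83.3 and 73.2 in its controls. In leaves it gave 93.8, 72.6 and 90.9 in the accumulating bulk on high zinc, against 53.1, 64.4 and 75.8 in its controls, and 85.0, 97.4 and 66.0 in the non-accumulating bulk on high zinc, against 93.2, 95.5 and 70.4 in its controls. The array at 34.9, replicate number 2 of the high-zinc roots, was the lowest of all, and the 8 group means lay between 64.4 and 86.4. Without that array the zinc difference of PUP15 in non-accumulating roots was 0.20 in place of -0.17, and the bulk difference in high-zinc roots -0.20 in place of 0.17.

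**Figure D5:**
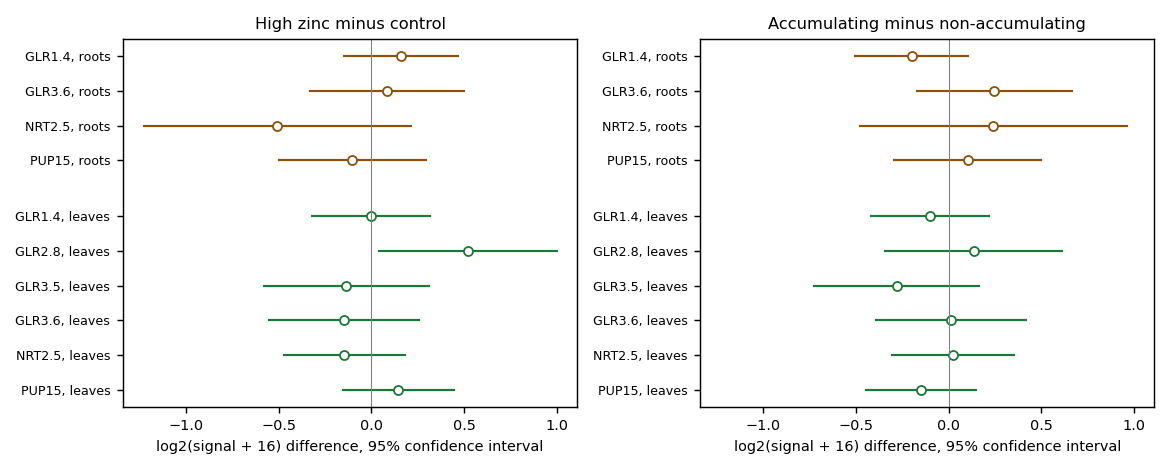
Log2 differences of the tested members, high zinc minus control (left) and accumulating minus non-accumulating (right), in roots (brown, 12 arrays) and leaves (green, 12 arrays), with bars for the 95% confidence interval. GLR2.8 in leaves, at 0.52 for zinc, is the value whose unadjusted interval does not include 0, and none of the values was called after adjustment.

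No interaction was called for any member. In simulated data the fit recovered 1 of 67 interactions of 2-fold and 37 of 66 of 4-fold between bulk and zinc in leaves. An interaction of 2-fold would thus mostly go uncalled there. The bulk by zinc interaction gave 0 of 4 in roots (0% of 12489 probe sets called, 470 at an unadjusted p under 0.05) and 0 of 6 in leaves. The organ by bulk interaction gave 0 of 6 (0% of 14403 probe sets, 372 at an unadjusted p under 0.05), with PUP15 at 0.25 (SE 0.24) having the smallest p. The organ by zinc interaction gave 0 of 6, against 1 of 14403 probe sets (0.00694%), with 933 at an unadjusted p under 0.05.

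Transporter genes of other families were taken from a list of 176 symbols, of which the probe table named 24. Most of the 24 were sugar transporters of the SWEET and TMT families. The metal carriers among them were MTP11, NRAMP5, ZIP6 and ZIP9. The HMA, IRT, FRD3 and ZIF1 symbols of the list were not named, so the counts given here do not cover those zinc and iron transport genes. In root against leaf 22 of the 24 listed genes were tested. Of these, 6 were higher, 6 were lower and 10 did not pass, with a median log2 difference of -0.07. Among all probe sets tested 67.9% were called (40.4% higher, 27.4% lower). The share of listed genes called was thus below that of all probe sets. The sugar exporter gene SWEET11, which loads sucrose toward the phloem in leaves of A. thaliana, was lower in roots by a log2 difference of -2.03 (SE 0.16), SWEET1 by -1.46 (SE 0.18) and SWEET4 by -1.26 (SE 0.16), while TMT1, a sugar carrier of the vacuole membrane, was higher in roots by 1.16 (SE 0.17). For zinc, bulk and their interaction none of the 18 listed genes tested in roots and none of the 22 tested in leaves was called. At an unadjusted p under 0.05 there were 3 in roots and 2 in leaves for zinc, 3 in each organ for the bulks, and 1 in roots and 0 in leaves for the interaction. Over all probe sets tested, the share at that p was 6.84% in roots and 9.38% in leaves for zinc. It was 6.9% in roots and 4.3% in leaves for the bulks, and 3.76% in roots and 1.55% in leaves for the interaction. Between replicate number 3 and the other leaf arrays, 2 of the 22 were called, both lower, where 22.8% of all probe sets were called.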

How the data were processed

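Total RNA, labelled with biotin, was hybridised to 24 ATH1 arrays in 8 groups of 3. The authors deposited 1 linear intensity per array for each of 22810 probe sets, made with MAS5 per the submitters' processing notes. No version or scaling target was given in the sources used here. The mean of each array after trimming 2% at each end was 100.0, so the authors' scaling was kept. No columns were identical. The 64 control probe sets were left out. By the platform's table, 13513 probe sets had 1 gene, 503 had several and 8794 had none.

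Signals were tested as log2(signal + 16) with limma 3.58.1 (R 4.3.3), using group means, eBayes with a variance trend, and Benjamini-Hochberg adjustment at 0.05 over all probe sets kept. Fold changes on this scale understate the change of low signals. All 24 arrays were fitted together for organ contrasts, and 12 arrays per organ for zinc and bulk. A probe set stayed in a fit if at least 1 group mean exceeded the median of the fitted values, a signal of 54.8 over all arrays, 56.3 in roots and 53.3 in leaves, which left 14403, 12489 and 12688. Log2 differences are root minus leaf, high zinc minus control, or accumulating minus non-accumulating, and SE is the moderated standard error. The script was tested on simulated data. Arrays have no read depth; precision is limited by how many arrays there are.

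The members, lists and tests were chosen with earlier results of these data known. The rule for named genes took up to 3 rises and 3 falls per family among members called between organs without overlap (none met this), the 5 highest and 5 lowest members for zinc and bulk in each organ, 3 members per interaction and for replicate 3 in leaves, GLR3.3 regardless of value, and up to 4 listed transporters; all 17 members are described, and those named by no part of the rule were described because they are members. Alternatives were pseudocounts of 1 and 64, no filter and a stricter one at the 75th percentile, no variance trend, plain probe sets only, median centring, quantile normalization, 1 fit of all arrays, a replicate block, each array left out in turn and the leaf arrays of replicate number 3 left out.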

Additional observations from a re-analysis of the deposited data

Results flagged for a closer look

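CHX21 was flagged because its media did not overlap in either organ of the non-accumulating bulk and its differences had opposite signs. All these signals were far below the array medians. In leaves the groups were parted only by 2.67 on high zinc against 2.65 in controls, so no direction can be read there. In roots its signals were 1.30, 1.27 and 2.45 on high zinc, all below the 2.85, 2.63 and 3.23 in controls, a log2 difference of -0.10. In leaves they were 2.87, 2.67 and 2.67 on high zinc, all above the 2.65, 2.52 and 1.76 in controls, a log2 difference of 0.03. CHX21 was under the filter on low signals in both organs, and the difference between the organs was not tested. Arrays of the media did not overlap for 12.2% of all probe sets tested in non-accumulating roots and 9.21% in non-accumulating leaves. These shares are for each organ alone, over probe sets above the filter. The share without overlap and with opposite signs in both organs was not counted.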

How the results depend on the processing

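Of 437 counts of members called under an alternative, 430 kept within 1.5 times the reported count and 7 moved. Between root and leaf, no filter gave 5 members called in place of 3, and the stricter filter gave 1, with GLR3.6 the 1 member then tested. For zinc in leaves, leaving out the leaf arrays of replicate number 3 gave 1 in place of 0, GLR2.8 at 0.65. For replicate number 3 in leaves, leaving out 1 array gave counts from 0 to 2. The calls of GLR2.8, GLR3.5 and GLR3.6 between root and leaf held in each alternative that tested them, with log2 differences of -1.14 to -0.56, -0.68 to -0.31 and 0.40 to 0.69 and limma adjusted p of at most 5.54e-05, 0.00392 and 0.00638 in that order. The stricter filter tested neither GLR2.8 nor GLR3.5. In the alternatives with a filter, a high leaf signal was a condition of these genes being tested. The fit with no filter sets no such condition, and both were called in it. Of 2382 values of single genes, 2370 kept their direction or their side of the threshold, 2 lost a call, 3 gained one and 7 turned by more than 1 SE, all of these when 1 array was left out, and for values not called; a further 120 sign changes, counted among the 2370, were within 1 SE. When 1 array was left out, NRT2.5 ranged from -0.14 to 0.46 for the bulks in roots, -0.80 to 0.40 for their interaction with zinc, -1.12 to 0.079 for zinc in accumulating roots and -0.35 to 0.85 for the bulks in control roots. PUP15 ranged from -0.41 to 0.20 for zinc in non-accumulating roots and -0.20 to 0.41 for the bulks in high-zinc roots, and GLR3.6 from -0.31 to 0.30 for zinc in accumulating roots. The cause was not tested, apart from the single arrays named with their signals. Deviations from the group means of same-numbered arrays correlated at -0.18 to 0.40 in roots (median 0.12, 18 pairs) and -0.02 to 0.72 in leaves (median 0.28, 18 pairs), against medians of -0.08 in roots and -0.17 in leaves for pairs of different numbers (36 pairs each). By number, all 6 pairs exceeded 0.1 for number 3 in roots (0.13 to 0.40) and in leaves (0.20 to 0.72) and for number 2 in leaves (0.19 to 0.51), but not for the others. Not every pair exceeded 0.1 and no label says what a number shares, so the block was kept as an alternative, although arrays of some numbers deviate together. With the replicate block 3 members were called between root and leaf and 0 for zinc in leaves, where GLR2.8 had an adjusted p of 0.230 and 61 probe sets were called in place of 4; the block changed no other call of a member. With 3 arrays a group, differences within the reported intervals could not be resolved, and signals near the lower end of the array say little of whether a gene was transcribed.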
